A study of Mus musculus with 6 samples.

Results

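The immunoglobulin heavy chain genes, the lambda light chain genes and the J chain gene were followed in 6 mouse T cell cultures. Members were the genes named Igj or starting with Ighv, Ighd, Ighj, Ighm, Ighg, Igha, Ighe, Iglv, Iglj or Iglc on chromosomes 12, 16 and 5, with a total estimated count of at least 10 over the 6 libraries. Of 150 genes with such names 104 were members, selected on that total count, out of 38483 genes in the whole table. The members were 7 of 7 heavy constant genes, 92 of 114 heavy variable (V) genes, 0 of 24 heavy diversity and joining (D and J) genes, the lambda constant gene Iglc2, the lambda V genes Iglv1, Iglv2 and Iglv3, and Igj. The total count alone set the limit: Ighv1-56 and Ighv6-5 at 3.11 and Ighv2-6-8 at 1.47 lay just outside it, and Ighv1-2 at 16.75, Ighv3-5 at 17.56 and Ighv3-3 at 17.82 just inside. Of the names left out, 38 had a total of 0 and 8 a total above 0. The heavy delta constant gene and the remaining lambda constant genes were not analysed here.

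RNA of CD4+CD62L+ T cells from spleen was compared between IL-17A-/- knockout (KO) and IL-17A+/+ wild-type (WT) mice, all on the B10.RIII background. The cells were taken with an isolation kit and held for 3 days under Th17 polarization (10 ng/ml of IL-6, 10 ng/ml of IL-23 and 1 ng/ml of TGF-β, with IFN-γ and IL-4 blocked by antibodies at 10 µg/ml), so that both genotypes received every cytokine and antibody. Each genotype had 3 libraries, called biological replicates in the labels and numbered 1 to 3. The mice's ages are not given. The p-values below are set against the spread between libraries of a genotype. In fits that pair same-numbered libraries, they are set against the spread left within pairs.

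An antibody is made of heavy and light chains, each with a V domain, which binds antigen, and a constant part, which in the heavy chain sets the antibody's class. B cells build the V exon by joining V, D and J segments. They splice it to the mu constant gene Ighm first, and class switching can later replace mu by a gamma, epsilon or alpha gene. In the mouse most light chains are kappa and a minority lambda. T cells rearrange T cell receptor genes instead, and immunoglobulin genes are textbook markers of B lineage cells.

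The libraries held 47335736 to 49743762 estimated counts, and 14824 to 15379 genes had 10 or more. Il17a had 57, 0 and 1 counts in KO 1, KO 2 and KO 3, against 7819, 9364 and 5161 in WT 1, WT 2 and WT 3. Libraries KO 1 and KO 2 stood apart in sex-linked RNA. Ddx3y, a Y chromosome gene, was at 44.4, 38.0 and 0 CPM (counts scaled to a common library total) in KO 1 to 3, against 0.452, 0 and 0 CPM in WT 1 to 3, and Xist, the X-inactivation RNA, at 2.58, 0 and 626 against 567, 622 and 663 CPM. Pairs 1 and 2 of same-numbered libraries therefore differed in sex-linked RNA as well as genotype, and pair 3 did not. Values of pair 3 are given beside the results for that reason. All 8 T cell markers listed passed the filter on low counts.

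In every class the immunoglobulin RNA averaged higher in KO than in WT cultures. The 104 members together reached 948, 702 and 647 CPM in KO 1 to 3, against 553, 297 and 363 CPM in WT 1 to 3, so that every KO library lay above every WT library. The means were 766 ± 161 CPM in KO and 404 ± 133 CPM in WT (SD, n = 3 each), a 1.89-fold ratio, and the ratio was 1.72, 2.37 and 1.78 in pairs 1, 2 and 3. Most of this CPM came from the heavy constant genes, but counts grow with transcript length. Per kb, heavy V genes were at 372, 300 and 424 CPM in KO 1 to 3. Heavy constant genes were at 549, 418 and 365 CPM per kb there. In WT 1 to 3 heavy V genes were at 192, 86.4 and 216 CPM per kb and heavy constant genes at 331, 186 and 212. In bulk RNA, fewer cells of a type and less RNA per cell cannot be told apart.

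The heavy constant genes summed to 755, 549 and 435 CPM in KO, against 454, 252 and 267 CPM in WT, with KO 3 below WT 1. Heavy V genes summed to 125, 103 and 144 CPM in KO, against 65.2, 29.3 and 73.3 CPM in WT, without overlap. Lambda V genes summed to 8.97, 8.79 and 6.47 CPM in KO, against 4.10, 3.34 and 3.59 CPM in WT, again without overlap. The group ratios were 1.79-fold for heavy constant, 2.22-fold for heavy V and 2.20-fold for lambda V genes, and those of pair 3 were 1.63, 1.96 and 1.80. These sums are descriptions over members chosen with results known, and carry no test.

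**Figure D1:**
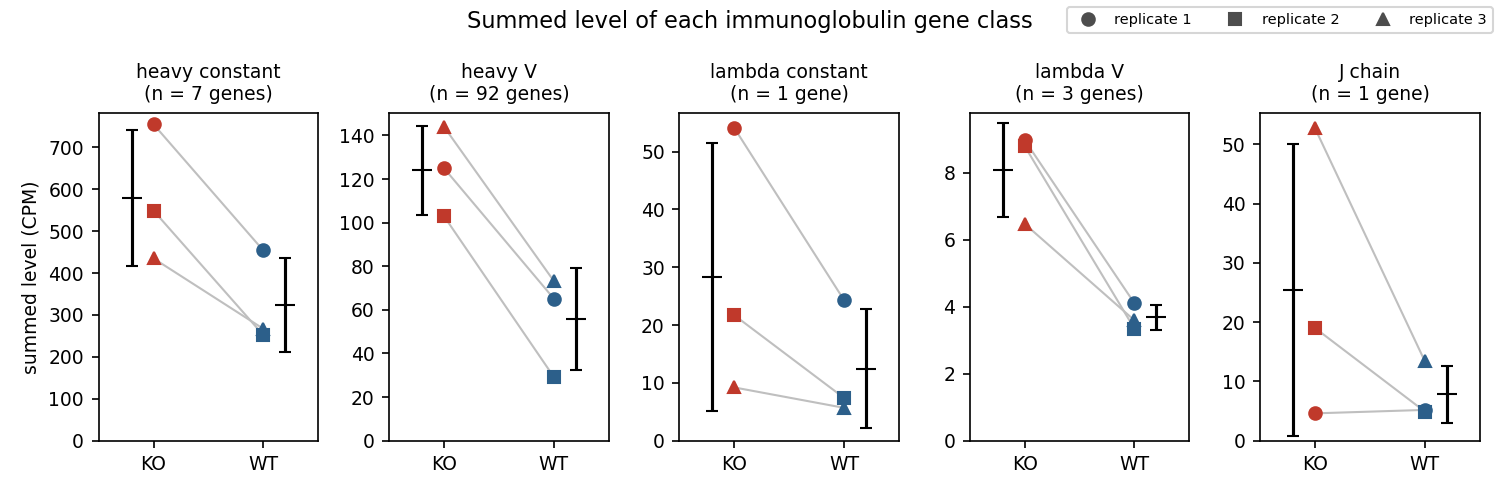
Summed level in CPM (y axes, each from 0 with its own scale) of heavy constant, heavy V, lambda constant, lambda V and J chain genes in the KO (left, red) and WT (right, blue) libraries, with same-numbered libraries joined and bars for the mean ± SD (n = 3 each). Heavy V and lambda V sums of KO and WT libraries did not overlap, and J chain was the 1 class with a KO library (KO 1, 4.61 CPM) below its same-numbered WT library (5.19 CPM).

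Gene by gene the differences did not pass the main test. Of the 104 members 80 passed the filter on low counts, and 24 did not, none of which had a total above 121.0 counts. edgeR's quasi-likelihood test called 0 of 80 members and 0 of 15121 genes, a background of 0%. At an unadjusted p under 0.05 it held 14 of 80 members, against 253 genes or 1.67% of all tested. The same-numbered libraries deviated together. DESeq2 with the replicate number as its block called 14 members, all higher in KO, and none lower. That is 17.5% of the 80, against 1.01% of all genes called higher in KO and 1.46% called lower. edgeR and limma-voom with the same block called 0 genes in the whole table, with smallest member adjusted p of 0.271 and 0.148.

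The direction was more uniform than the calls. The log2 change in edgeR was above 0 for 70 of 80 members, against 52.4% of all genes, with a median of 1.27 over the members and 0.01 over all genes. In 20 of the 80 every KO library lay above every WT library, against 3% of all genes, and in 0 of the 80 every KO library lay below, against 3.15%. Several of the 20 met the low-count filter only with the help of their KO libraries. Among them were Ighv9-1 (0, 3 and 3 counts in WT), Ighv10-1 (35, 1 and 59), Ighv5-16 (17, 2 and 17) and Ighv1-80 (65, 5 and 55). For such members the lack of overlap is no separate support. KO exceeded WT in all 3 pairs in 40 of the 80, against 16.5% of all genes, and WT exceeded KO in all 3 pairs in 1 of the 80, Ighv5-4, against 16.7%. Ighv5-4 was at 0.879, 1.04 and 0.0405 CPM in KO and 1.77, 1.26 and 0.543 CPM in WT, and was named after its values were seen. Among the 24 members too low to test, Ighv2-6, also named after its values were seen, lay wholly lower in KO, with 0, 2 and 0 counts in KO and 15, 7 and 9 counts in WT. Members share sequence, cells and libraries, so these counts are not separate observations.

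The 14 members called by DESeq2 with the block were Igj, Ighg1, Iglc2, Iglv3 and the heavy V genes Ighv1-22, Ighv1-26, Ighv1-53, Ighv1-80, Ighv1-82, Ighv5-16, Ighv5-17, Ighv9-1, Ighv10-1 and Ighv14-3, with log2 changes of 1.13 to 5.17. In 9 of the 14 the genotypes did not overlap. Ighv9-1, Ighv10-1, Ighv5-16 and Ighv1-80, among the 9, met the low-count filter only with the help of their KO libraries. The calls depended on the pairs used. Without the replicate 1, 2 or 3 libraries DESeq2 called 10, 5 and 6 members, against 1.16, 1.73 and 0.955% of all genes, and of these members 7, 3 and 3 were among the 14. All were higher in KO except Ighv2-4, called lower without the replicate 2 libraries, which had 0, 15 and 0 counts in KO and 29, 0 and 73 counts in WT. None of the 14 passed in all 3 of these fits, and 10 passed in at least 1. Iglv3, Ighv1-22, Ighv1-53 and Ighv5-17 passed in none of them, with changes still above 0 in each. Below, a member is said to pass or to be called only in this DESeq2 fit with the block, unless another fit is named.

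**Figure D2:**
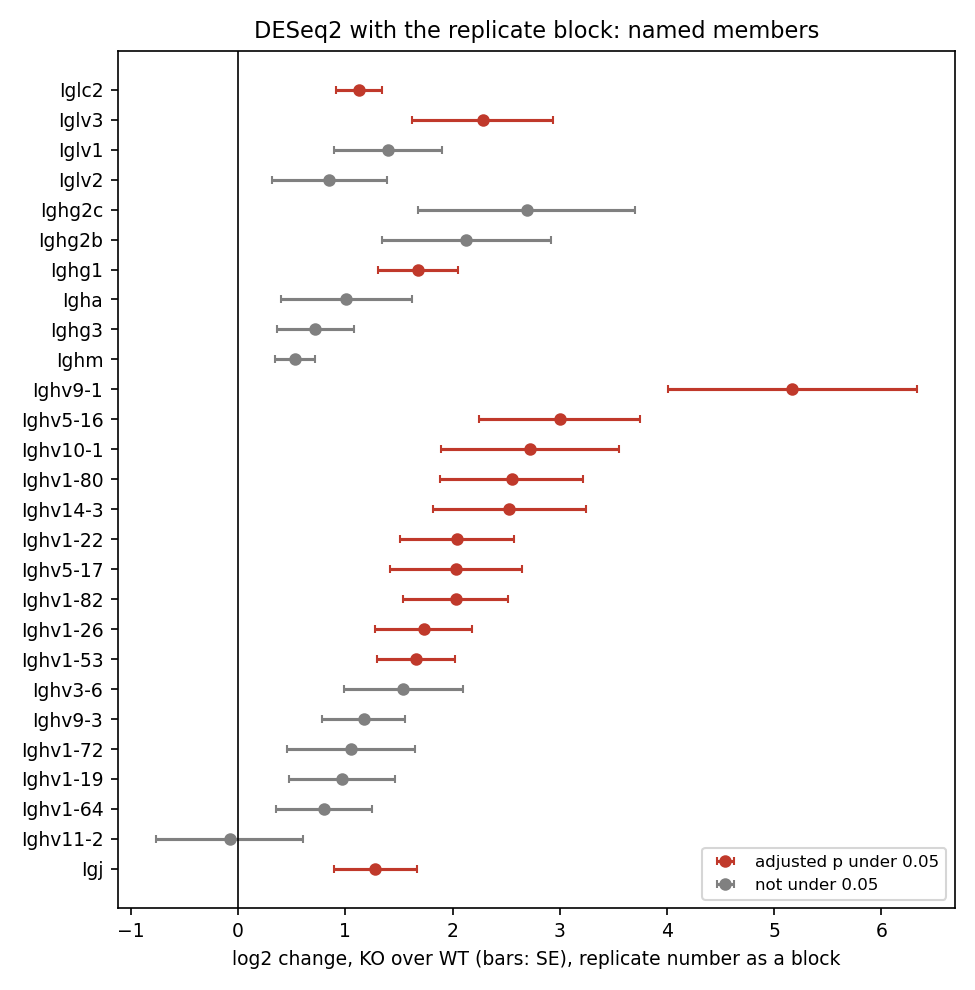
Log2 change of KO over WT (x axis) with its SE for the members described by name (y axis), from DESeq2 with the replicate block. The members with an adjusted p under 0.05 (red) all lay above 0, and Ighv11-2 lay at -0.08.

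Ighm (chromosome 12, 113418950 to 113422730, GRCm38, minus strand) encodes the mu heavy chain of IgM. Per length it was the highest member, at a mean of 313 CPM per kb in KO and 199 CPM per kb in WT, and Igha followed at 47.5 and 28.7 CPM per kb. Ighm was at 702, 438 and 179 CPM in KO 1 to 3, against 421, 232 and 183 CPM in WT 1 to 3. The genotypes overlapped, and the order of the replicates was the same in both. The means were 440 ± 262 and 279 ± 125 CPM (SD, n = 3 each). The change was 0.66 in edgeR (SE 0.516) and 0.53 in DESeq2 with the block (SE 0.190, adjusted p 0.131), so Ighm did not pass. The edgeR change was 0.14 without KO 1 and 1.08 without WT 1. Without the replicate 3 libraries it passed, at 0.82 (adjusted p 0.00133). In pair 3 alone the log2 ratio was -0.04.

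Ighm RNA has a form for secretion and a form for the membrane receptor, which share the 4 main exons and part at a splice site within the last of them. The stretch on either side of that site is printed because reads over it tell the forms apart. It is from the GENCODE M21 transcripts on GRCm38, minus strand. Lower case marks the 30 shared bases before the site, and capitals mark the coding bases of each form after it (chr12:113420870-113420928 in the secreted form, and the start of the first membrane exon, chr12:113419003-113419068, in the membrane form).
Ighm secreted form: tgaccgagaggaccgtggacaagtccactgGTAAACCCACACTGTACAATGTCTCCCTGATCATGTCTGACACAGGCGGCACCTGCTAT
Ighm membrane form: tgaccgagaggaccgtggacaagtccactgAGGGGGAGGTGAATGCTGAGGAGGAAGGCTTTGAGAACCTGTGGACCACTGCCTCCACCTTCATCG

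The membrane form was at 552, 255 and 78.5 CPM in KO, against 303, 111 and 88.9 CPM in WT. The secreted form was at 150, 183 and 100 CPM in KO, against 118, 121 and 94.5 CPM in WT. The membrane form varied more between libraries than the secreted form in both genotypes, and each form overlapped between them. The membrane form made up 78.6, 58.3 and 44.0% of Ighm counts in KO and 72.0, 47.8 and 48.5% in WT, with means of 60.3 ± 17.4 and 56.1 ± 13.8% (SD, n = 3 each). The genotypes differed by less than the spread between replicates. The forms share 1305 coding bases, so the split rests on few bases and on the authors' estimate, and it was not tested.

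The gamma genes, which encode IgG heavy chains and are reached by class switching, varied widely among libraries. Ighg2c, the gamma 2c gene (113285325 to 113288930), was at 3.50, 25.0 and 99.5 CPM in KO 1 to 3, against 2.85, 1.15 and 11.4 CPM in WT 1 to 3. Ighg2b (113306389 to 113307933) was at 6.13, 22.7 and 75.1 CPM in KO, against 4.82, 3.47 and 8.06 CPM in WT. For both genes KO exceeded WT within each pair, and KO 1 lay below WT 3.

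The edgeR change of Ighg2c was 3.05 (SE 1.27) and that of Ighg2b 2.67 (SE 0.856), with an unadjusted p of 0.0480 and 0.0172 and an adjusted p of 1 for every member. DESeq2 with the block gave 2.69 (adjusted p 0.167) and 2.13 (adjusted p 0.152), so neither passed. Without the replicate 1 libraries both passed, at 3.72 (adjusted p 1.16e-33) and 2.98 (adjusted p 1.21e-30), in a fit with 1 residual degree of freedom. Without the replicate 2 libraries the changes were 1.70 and 1.77, and without the replicate 3 libraries 2.36 and 1.52, and no such fit called them. In edgeR the changes without KO 3 were 1.45 for Ighg2c and 1.38 for Ighg2b.

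Ighg1, the gamma 1 gene (113328976 to 113330523), was at 0.899, 5.31 and 16 CPM in KO, against 0.452, 1.83 and 3.11 CPM in WT. KO exceeded WT in each pair, while KO 1 lay below WT 2 and WT 3. The edgeR change was 2.04 (SE 1.06), or 0.77 without KO 3, and DESeq2 with the block called Ighg1, at 1.68 (SE 0.374, adjusted p 9.65e-04). The call was lost without the replicate 2 libraries (adjusted p 0.0563) and without the replicate 3 libraries (adjusted p 1). Ighg3 was at 8.62, 6.36 and 3.18 CPM in KO and 4.33, 2.68 and 3.34 CPM in WT. In KO its replicates ran in the order of Ighm and not of the other gamma genes, highest in KO 1, and it did not pass (0.72, SE 0.360, adjusted p 0.449).

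Igha encodes the alpha chain of IgA, an antibody class of mucosal surfaces. It was at 34.0, 51.4 and 61.8 CPM in KO and 20.5, 10.5 and 58.0 CPM in WT. WT 3 lay above KO 1 and KO 2, and the means of 49.1 ± 14.0 and 29.7 ± 25.0 CPM (SD, n = 3 each) differed by less than the larger spread. The change of 1.01 in DESeq2 with the block (SE 0.608, adjusted p 0.625) did not pass. It passed without the replicate 3 libraries, at 1.49 (adjusted p 0.00292). Ighe, for IgE, had 20 counts in KO 3 and 0 in the other 5 libraries, where a count of 0 allows up to 3 counts or 0.0586 to 0.0676 CPM, and it was too low to test.

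**Figure D3:**
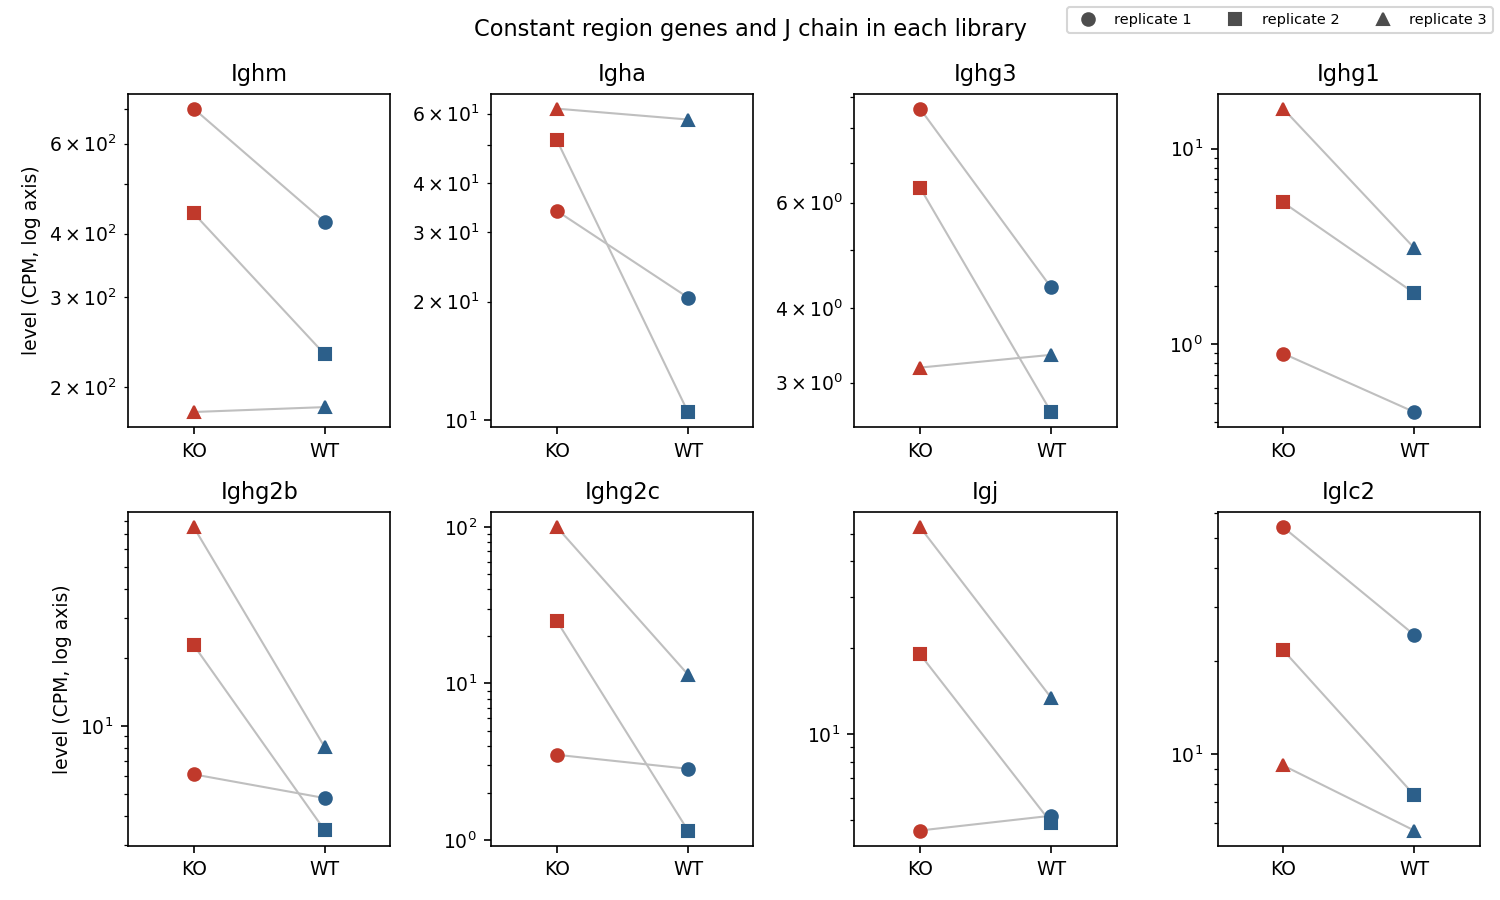
Level in CPM (log axes, each panel with its own scale) of Ighm, Igha, Ighg3, Ighg1, Ighg2b, Ighg2c, Igj and Iglc2 in KO (left, red) and WT (right, blue) libraries, with same-numbered libraries joined. Ighm, Ighg3 and Iglc2 were highest in KO 1, whereas Igha, Ighg1, Ighg2b, Ighg2c and Igj were highest in KO 3.

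The makeup of the heavy constant RNA differed between libraries more than between genotypes. Shares here are of estimated counts, which grow with transcript length, so they are compared across libraries and not across genes. Ighg1, Ighg2b and Ighg2c together took 1.39, 9.65 and 43.9% in KO 1 to 3, against 1.79, 2.56 and 8.44% in WT 1 to 3. The share was larger in KO in pairs 2 and 3 and smaller in pair 1. The exact 95% binomial intervals were 1.28 to 1.52% in KO 1 and 1.62 to 1.97% in WT 1, and 43.2 to 44.5% in KO 3 and 7.97 to 8.94% in WT 3. Intervals and floors cover counting error only.

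The summed level of these 3 gamma genes was 10.5, 53.0 and 191 CPM in KO, against 8.13, 6.45 and 22.6 CPM in WT, a log2 ratio of 0.37, 3.04 and 3.08 in pairs 1, 2 and 3. The Ighm share was 71.3 ± 27% in KO and 84.5 ± 13.8% in WT (SD, n = 3 each), and the Igha share 9.36 ± 4.85 and 10.1 ± 10%. Both differences were smaller than the spread within a genotype.

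**Figure D4:**
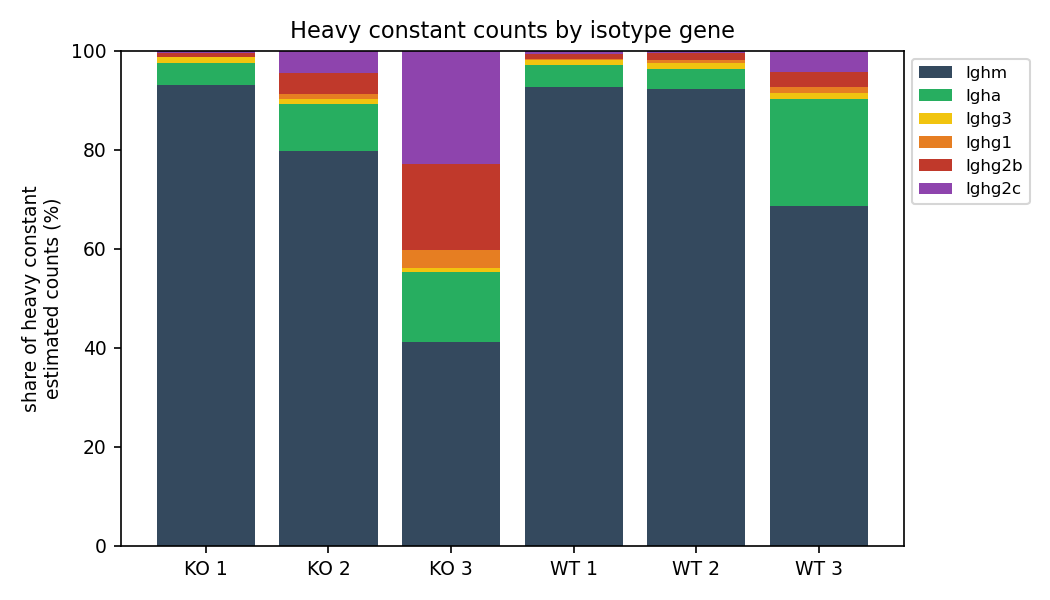
Share of the heavy constant estimated counts (y axis, percent) taken by each isotype gene in each library, with the KO libraries left of the WT libraries. KO 3 held the largest gamma share, with Ighg2c at 22.9% and Ighg2b at 17.3%, and KO 1, WT 1 and WT 2 were at least 92.2% Ighm.

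Igj (chromosome 5, 88520512 to 88527891) encodes the J chain, which links IgM and IgA monomers and is made in antibody-secreting cells. It was at 4.61, 19.0 and 52.7 CPM in KO, against 5.19, 4.91 and 13.4 CPM in WT. KO was lower in pair 1 and higher in pairs 2 and 3, as was the gamma share. The means were 25.4 ± 24.7 and 7.83 ± 4.81 CPM (SD, n = 3 each). Igj was called by DESeq2 with the block (1.28, SE 0.388, adjusted p 0.0434), and edgeR gave 1.70 (SE 0.838), or 0.57 without KO 3. The call held without the replicate 1 libraries (1.97, adjusted p 4.3e-13) and was lost without the replicate 2 (0.90, adjusted p 0.553) and without the replicate 3 libraries (0.89, adjusted p 1).

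Iglc2, a lambda constant gene (chromosome 16, 19198401 to 19200351), was at 54.1, 21.7 and 9.21 CPM in KO, against 24.3, 7.39 and 5.68 CPM in WT. KO exceeded WT within each pair, and the groups overlapped because replicate 1 was highest and replicate 3 lowest in both genotypes, as for Ighm. Iglc2 was called with the smallest adjusted p of the members, 4.6e-05, at 1.13 (SE 0.215). It also passed without the replicate 2 libraries (0.91, adjusted p 0.0193) and without the replicate 3 libraries (1.34, adjusted p 1.48e-04), and narrowly missed without the replicate 1 libraries (1.14, adjusted p 0.0569). The edgeR change without the block was 1.18 (SE 0.766), with 0.30 when KO 1 and 2.11 when WT 1 was left out.

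The kappa constant gene Igkc, the counterpart of Iglc2, is no member and was at 256, 247 and 264 CPM in KO, against 128, 122 and 89.2 CPM in WT. It did not overlap between genotypes, and the 3 KO libraries lay close together. Its changes were 1.18 in edgeR (SE 0.169, unadjusted p 2.27e-04) and 1.19 in DESeq2 with the block (adjusted p 1.78e-11). Iglc2 made up 17.4, 8.10 and 3.36% of the Iglc2 and Igkc counts in KO and 16, 5.73 and 5.99% in WT. With means of 9.62 ± 7.14 and 9.24 ± 5.86% (SD, n = 3 each), this Iglc2 share differed by far less between genotypes than between replicates. The remaining lambda constant genes were no part of it.

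The lambda V genes were all higher in KO in each pair. Iglv1 was at 4.63, 4.54 and 3.88 CPM in KO, against 1.97, 0.676 and 3.05 CPM in WT, without overlap, and did not pass (1.40, SE 0.505, adjusted p 0.139). Iglv2 was at 1.07, 2.84 and 1.62 CPM in KO and 0.698, 2.41 and 0.459 CPM in WT, and did not pass (0.85, SE 0.536, adjusted p 0.659). Iglv3 was at 3.26, 1.41 and 0.971 CPM in KO and 1.44, 0.248 and 0.0835 CPM in WT, with KO 2 and KO 3 below WT 1, and was called (2.28, SE 0.661, adjusted p 0.0289), a call lost without any 1 of the pairs (adjusted p 0.308 to 0.754).

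Iglv1 and Iglv2 are near copies, with 338 of 348 aligned coding bases in common (97.1%), whereas Iglv3 shares 60.8% with Iglv1 and 60.4% with Iglv2. A 90-base stretch of each near copy is printed to show how little separates their reads. It is from GENCODE M21 on GRCm38, minus strand, at chr16:19085229-19085318 and chr16:19260613-19260702, and capitals mark the 3 bases that differ. The split of counts between Iglv1 and Iglv2 is therefore uncertain.
Iglv1: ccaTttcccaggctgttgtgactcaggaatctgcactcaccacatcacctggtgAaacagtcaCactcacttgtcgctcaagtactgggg
Iglv2: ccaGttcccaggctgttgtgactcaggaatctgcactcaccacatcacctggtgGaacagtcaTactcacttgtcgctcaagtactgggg

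The heavy V genes were many, each at a low level. Of the 92 members 69 were tested, and 59 of these had an edgeR change above 0, against 52.4% of all genes, with a median of 1.29. In 19 of the 69 the KO libraries lay wholly above the WT libraries, against 3% of all genes. In 0 of the 69 they lay wholly below, against 3.15%. Several of the 19, Ighv9-1, Ighv10-1, Ighv5-16 and Ighv1-80 among them, met the low-count filter only with the help of their KO libraries. An unadjusted p under 0.05 in edgeR was found for 12, against 1.67% of all genes. DESeq2 with the block called 10 (14.5%), all higher in KO, against 1.01% of all genes called higher and 1.46% called lower. Of all 92 members, 73, 65 and 67 had 10 or more counts in KO, against 62, 34 and 65 in WT, and 7, 9 and 14 stood at 0 in KO, against 16, 31 and 13 in WT. Pair 3 was close to even in both counts, and WT 2, with the lowest summed V level, had the fewest V genes. Some members met the total count rule through 1 genotype only.

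V usage was broad in all libraries. The V genes that made up the upper 50% of heavy V counts numbered 15, 10 and 15 in KO and 16, 10 and 14 in WT. The large Ighv1 family, with 47 members, took 61.7, 42.4 and 65.3% of heavy V counts in KO and 61.6, 49.2 and 65.4% in WT. Its share was lowest in KO 2 and WT 2. The family's sum was 77.3, 43.8 and 93.9 CPM in KO, against 40.1, 14.4 and 47.9 CPM in WT, a ratio of 1.92, 3.04 and 1.96 in pairs 1, 2 and 3. The smaller families Ighv2, Ighv3, Ighv5, Ighv6, Ighv8, Ighv9, Ighv10 and Ighv14 were each higher in KO in all 3 pairs, whereas 5 families were lower in KO in at least 1 pair. Ighv7 was lower in pair 3, at 0.870 CPM in KO 3 and 1.90 CPM in WT 3, and so was Ighv4, at 0.0607 CPM in KO 3 and 0.919 CPM in WT 3. Ighv13 and Ighv15 were lower in pair 3 by little, at 0.101 and 0 CPM in KO 3 and 0.104 and 0.0418 CPM in WT 3, and Ighv11, whose 1 member is Ighv11-2, was lower in pairs 1 and 3.

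The ends of 6 heavy V segments are printed, 3 of the Ighv1 family that were called, Ighv9-1 with the largest change, and a pair that set the replicate 2 libraries apart. Each line holds the last 60 coding bases in GENCODE M21 on GRCm38 (minus strand, chr12:114788372-114788431, chr12:115158403-115158462, chr12:115952538-115952597, chr12:114093928-114093987, chr12:114048241-114048300 and chr12:114366521-114366580, in the order listed), and capitals mark the codon of the conserved cysteine that opens the CDR3 loop.
Ighv1-26: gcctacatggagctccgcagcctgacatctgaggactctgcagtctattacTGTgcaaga
Ighv1-53: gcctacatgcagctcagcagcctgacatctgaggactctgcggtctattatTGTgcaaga
Ighv1-82: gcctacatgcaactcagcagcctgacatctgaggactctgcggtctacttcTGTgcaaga
Ighv9-1: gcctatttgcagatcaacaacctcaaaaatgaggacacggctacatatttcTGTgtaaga
Ighv11-2: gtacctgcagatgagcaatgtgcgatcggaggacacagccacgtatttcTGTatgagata
Ighv12-3: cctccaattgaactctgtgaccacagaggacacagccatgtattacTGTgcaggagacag

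The Ighv1 segments resemble each other more than they resemble the other families. Over the whole coding sequence, the nearest other member was 96.7% identical for Ighv1-26 (Ighv1-18), 95.4% for Ighv1-53 (Ighv1-64) and 96.3% for Ighv1-82 (Ighv1-80), against 76.9% for Ighv11-2 (Ighv4-1) and 77.7% for Ighv12-3 (Ighv3-1). Of 86 heavy V members that could be compared, 42 had a nearest member at 95% identity or more. Ighv1-62-2 and Ighv1-71, identical over all 302 aligned coding bases, had equal counts in all 6 libraries. They were counted as 2 tested members but are not separate measurements. Near copies were also found in other families. The nearest member was 96.7% identical for Ighv10-1 (Ighv10-3), 96.3% for Ighv14-3 (Ighv14-1) and 97.7% for Ighv2-4 (Ighv2-2). The authors' counting can divide reads between such genes, so values of single V genes with a near copy are uncertain, and those of Ighv11-2 and Ighv12-3 less so. Joined V exons can also carry mutations, whose part in the counts was not tested.

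Ighv1-26 had the highest mean level among heavy V genes, at 12, 4.44 and 6.23 CPM in KO, against 3.65, 0.541 and 4.05 CPM in WT. The genotypes did not overlap, and it was called (1.73, SE 0.453, adjusted p 0.00984), though not without the replicate 1 (1.78, adjusted p 0.160) or the replicate 2 libraries (1.15, adjusted p 0.233). Ighv1-53 was at 4.43, 2.82 and 5.56 CPM in KO, against 1.17, 0.811 and 2.21 CPM in WT, without overlap, and was called (1.66, SE 0.364, adjusted p 7.6e-04), with changes of 1.56 to 1.85 and no call when any 1 pair was left out (adjusted p 0.105 to 0.257). Ighv1-82 was at 4.96, 2.92 and 8.46 CPM in KO, against 1.85, 1.13 and 0.794 CPM in WT. It too did not overlap and was called (2.03, SE 0.489, adjusted p 0.00328), and it passed again without the replicate 1 and without the replicate 2 libraries but not without the replicate 3 libraries (1.39, adjusted p 0.650).

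Ighv9-1 had the largest change of the called members. It had 76, 12 and 205 counts in KO, against 0, 3 and 3 counts in WT, or 1.48, 0.245 and 4.15 CPM against 0, 0.0676 and 0.0626 CPM. Every KO library lay above every WT library, but Ighv9-1 met the low-count filter only through its KO libraries. Its lack of overlap and its large change are therefore no separate support. The fitted changes of 5.43 in edgeR and 5.17 in DESeq2 with the block (SE 1.16, adjusted p 0.00112) rest on the 6 counts of the WT libraries together. Without the replicate 3 libraries the call was lost (4.63, adjusted p 0.467). Ighv9-1 was the 1 member that DESeq2 also called without the block, against 0.0529% of all genes called higher in that fit. Its nearest member, Ighv9-2, is 95.9% identical.

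The remaining called V genes lay below 6 CPM in every library. Ighv1-80 was at 2.77, 3.43 and 5.40 CPM in KO, against 1.33, 0.113 and 1.15 CPM in WT, and Ighv5-16 at 1.15, 1.27 and 2.89 CPM in KO, against 0.349, 0.0451 and 0.355 CPM in WT. Ighv1-22, Ighv10-1 and Ighv5-17 also had all KO above all WT libraries, and Ighv14-3 did not. Their log2 changes ran from 2.03 for Ighv5-17 to 3.00 for Ighv5-16, with adjusted p of 0.00549 to 0.0446. Without the replicate 2 libraries none of these 6 passed, with changes of 1.56 to 2.36.

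Of the 10 heavy V genes of highest mean level, Ighv9-3, Ighv1-64, Ighv3-6, Ighv1-19 and Ighv1-72 averaged higher in KO without passing, with log2 changes of 0.80 to 1.54 and adjusted p of 0.0836 to 0.577. Ighv3-6 did not overlap between genotypes, at 3.46, 3.80 and 3.34 CPM in KO, against 1.70, 0.428 and 2.07 CPM in WT. Ighv1-72 was lower in KO in pair 3, at 3.38 CPM in KO 3 and 4.32 CPM in WT 3.

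Ighv11-2, also among these 10, went with the replicate number rather than the genotype. It was at 0.0977, 19.9 and 0.931 CPM in KO, against 0.472, 3.81 and 1.38 CPM in WT. Replicate 2 was the highest in both genotypes, and KO was lower than WT in pairs 1 and 3. Ighv11-2 took 19.3% of all heavy V counts in KO 2 (exact 95% interval 18.2 to 20.4%) and 13.0% in WT 2 (11.2 to 14.9%), and at most 1.88% in any other library. Its change was 1.89 in edgeR (SE 1.62) and -0.08 in DESeq2 with the block (SE 0.687, adjusted p 0.994), and without KO 2 the edgeR change was -1.88.

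Ighv12-3 was also highest in replicate 2, at 0.234, 7.79 and 0.627 CPM in KO, against 0, 1.74 and 0.251 CPM in WT. Unlike Ighv11-2 it was higher in KO in each pair, and DESeq2 with the block gave 2.28 (SE 0.726, adjusted p 0.0611). In mice, Ighv11-2 and Ighv12-3 are known to be used in antibodies against phosphatidylcholine, together with the kappa segments Igkv14-126 and Igkv4-91, by B-1a cells. Those kappa segments, no members and looked up with Ighv12-3 after the values of Ighv11-2 were seen, were also highest in replicate 2. Igkv14-126 was at 1.05, 37.3 and 2.97 CPM in KO, against 0.759, 12.6 and 1.63 CPM in WT, and Igkv4-91 at 1.21, 19.7 and 3.24 CPM in KO, against 0.554, 7.39 and 1.78 CPM in WT. Both were higher in KO in each pair and were called (1.02, adjusted p 0.0287, and 1.14, adjusted p 0.00764). Without Ighv11-2 and Ighv12-3 the heavy V sum was 125, 75.6 and 142 CPM in KO, against 64.7, 23.8 and 71.7 CPM in WT, still without overlap.

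**Figure D5:**
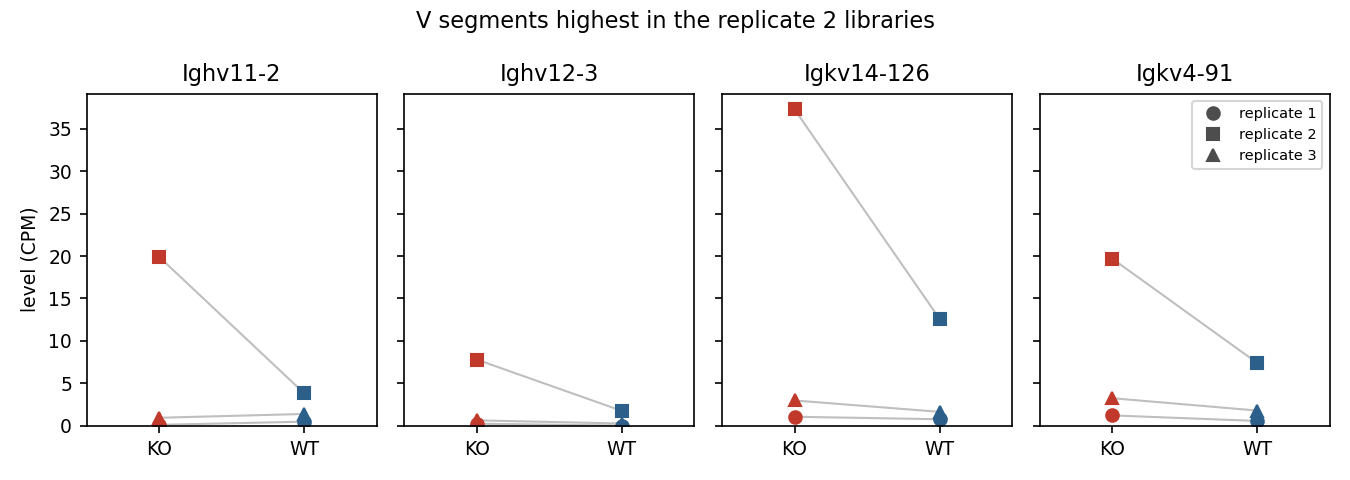
Level in CPM (y axis, shared and from 0) of Ighv11-2, Ighv12-3, Igkv14-126 and Igkv4-91 in KO (left, red) and WT (right, blue) libraries, with same-numbered libraries joined. All 4 segments were highest in KO 2, and WT 2 was the next highest for each.

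The ratio of V to constant RNA also varied with the replicate. Per kb, heavy V genes stood at 0.677, 0.718 and 1.16 times the heavy constant level in KO, and at 0.580, 0.466 and 1.02 times in WT. The ratio was slightly higher in KO within each pair, and replicate 3 was the highest in both genotypes. For lambda, the ratio of V to Iglc2 was 0.282, 0.696 and 1.21 in KO and 0.287, 0.783 and 1.09 in WT, with no common direction in the pairs. It too left out the remaining lambda constant genes.

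Markers of B cells, apart from Ebf1, ran in the replicate order of Ighm and Iglc2. The 9 B cell markers summed to 381, 181 and 66.5 CPM in KO, against 180, 73.4 and 63.4 CPM in WT, and none was at 0. The sums were close to even in pair 3. Cd79a and Ebf1 were lower there in KO 3 (13.2 and 6.07 CPM) than in WT 3 (14.1 and 10.1 CPM). Both were named after their values were seen. All 9 had an edgeR change above 0, against 52.4% of all genes, and none passed in edgeR. DESeq2 with the block called 3 of 9: Blk, a B cell Src-family kinase (1.11, adjusted p 2.35e-05), Ms4a1, which encodes CD20 (1.36, adjusted p 0.0213), and Cd22, an inhibitory co-receptor gene (0.92, adjusted p 0.0283). Of all genes that fit called 1.01% higher in KO and 1.46% lower, the background for this list and the lists below. Blk passed with any 1 pair left out (adjusted p 2.1e-04 to 0.0197), whereas Ms4a1 and Cd22 were lost without the replicate 1 (adjusted p 0.269 and 0.590) and without the replicate 2 libraries (adjusted p 0.457 and 0.424). Cd22 was at 93.9, 36.7 and 8.40 CPM in KO, against 37.2, 14.4 and 8.10 CPM in WT. The order of replicates, 1 highest and 3 lowest in both genotypes, was that of Ighm and Iglc2 and the reverse of that of Igj, Ighg1, Ighg2b and Ighg2c in KO. The part of B cell content in the immunoglobulin levels was not tested.

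Of the 15 genes of antigen receptor signalling in B cells, all tested, DESeq2 with the block called 6 higher and 0 lower in KO. Of all genes it called 1.01% higher and 1.46% lower. Among the 6 were the inhibitory Fc receptor gene Fcgr2b (0.80, adjusted p 3.63e-04) and the adaptor genes Blnk (1.02, adjusted p 7.29e-04) and Bank1 (1.11, adjusted p 0.0219). Fcgr2b passed in no fit with a pair left out (adjusted p 0.0756 to 0.173), and Blnk and Bank1 only without the replicate 3 libraries (adjusted p 0.00964 and 0.00353). The edgeR change was above 0 in 12 of the 15. It was below 0 for Cd81 (-0.25), Dapp1 (-0.14) and Pik3ap1 (-0.17), named after their values were seen. The list summed to 1040, 668 and 455 CPM in KO, against 675, 481 and 516 CPM in WT, and so was lower in KO in pair 3. Of 9 tested genes for Fc and polymeric immunoglobulin receptors 2 were called higher, Fcgr2b and Fcrla, an intracellular Fc receptor-like gene of B cells. Fcrla was at 52.7, 21.8 and 6.05 CPM in KO, against 22.5, 5.34 and 3.03 CPM in WT (1.41, adjusted p 3.27e-06), and passed with any 1 pair left out (adjusted p 1.86e-05 to 0.0061). Of 9 tested genes for transcription factors of immunoglobulin genes 1 was called, the octamer coactivator gene Pou2af1 (0.77, adjusted p 0.0489), at 66.1, 64.8 and 47.8 CPM in KO, against 47.5, 22.6 and 37.5 CPM in WT. Its genotypes did not overlap, and without the replicate 2 libraries the call was lost (0.39, adjusted p 0.417).

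Of 9 tested genes of plasma cells and secretion 0 were called higher in KO and 1 lower, Xbp1, a factor of the secretory program that T cells also express (-0.47, adjusted p 0.0282), a call lost without the replicate 2 (adjusted p 0.329) or the replicate 3 libraries (adjusted p 0.442). The edgeR change was above 0 in 6 of the 9, with a median of 0.21. Among the 6 was Prdm1, a regulator gene of plasma cells, at 8.15, 10.7 and 16.4 CPM in KO, against 6.51, 7.84 and 9.50 CPM in WT. Below 0 were Xbp1 (-0.53), Sdc1 (-0.23) and Fkbp11 (-0.18). Prdm1, Sdc1 and Fkbp11 were named after their values were seen. Tnfrsf17, which encodes the plasma cell receptor BCMA, was at 0 in all 6 libraries. The list summed to 659, 739 and 614 CPM in KO, against 607, 911 and 627 CPM in WT. Of 15 genes of class switching and somatic hypermutation none was called. Msh6, a mismatch repair gene and the most abundant of them, was at 69.5, 63.7 and 82.3 CPM in KO and 71.1, 77.4 and 93.1 CPM in WT. Of 2 tested genes of V(D)J recombination and the pre-B receptor, Dntt, which adds bases at V(D)J joints, was called lower (-1.40, adjusted p 8.48e-11), at 2.07, 11.9 and 19.7 CPM in KO, against 6.75, 28.8 and 46.5 CPM in WT. It passed with any 1 pair left out (adjusted p 1.52e-05 to 0.00243). The other tested gene, Vpreb3, did not pass (0.95, adjusted p 0.569), at 2.75, 2.64 and 2.57 CPM in KO, against 2.03, 0.518 and 2.15 CPM in WT, without overlap. Rag2 and Igll1 were at 0 in all 6 libraries.

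Markers of other cell types were also measured. Cd8a, a marker of CD8 T cells, was at 425, 62.3 and 66.1 CPM in KO, against 257, 48.3 and 33.7 CPM in WT, and was called (0.68, adjusted p 7.31e-04), though not without the replicate 1 (adjusted p 0.0856) or the replicate 3 libraries (adjusted p 0.273). The 6 myeloid markers summed to 108, 194 and 29.4 CPM in KO, against 62.3, 104 and 12.8 CPM in WT, and Mpeg1 (1.22) and Itgam (0.92) were called, Mpeg1 not without the replicate 1 libraries (adjusted p 0.449) and Itgam not without the replicate 2 (adjusted p 0.631) or the replicate 3 libraries (adjusted p 0.658). Of the 8 T cell markers 1 was called, Cd5, a surface receptor of T cells, lower in KO (-0.56, adjusted p 0.00244), a call lost without the replicate 1 (adjusted p 0.237) or the replicate 3 libraries (adjusted p 0.0860). The summed T cell markers were at 3500, 3750 and 3160 CPM in KO, against 4140, 3620 and 3010 CPM in WT. The part of the kit's separation in these levels was not tested.

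The genes nearest in pattern to the summed heavy constant level were sought among 12610 genes with a mean of at least 1 CPM, by the Pearson correlation of log2(CPM + 0.5) over the 6 libraries, as a description with no p. Among the nearest, with r of 0.979 to 0.993, were AW554918, Gm15927, Golim4, Rasgrp3, Tor1aip1 and Ptgs2. Rasgrp3, which encodes an exchange factor for Ras, was at 16.1, 7.54 and 4.75 CPM in KO, against 6.34, 1.78 and 2.65 CPM in WT, and Ptgs2, which encodes cyclooxygenase-2, at 4.42, 1.90 and 1.07 CPM in KO, against 1.74, 0.428 and 0.355 CPM in WT. The 6 points share the libraries' depth and cell content, and so many genes were searched that high values of r are found in any case.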

How the data were processed

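The deposited table gives, per the file headers, estimated counts per transcript for 93480 transcripts in 6 libraries, with each transcript's length and GC content as a fraction. The submitters' processing notes list Bowtie2 2.1.0, eXpress 1.3.1 and GRCm38; which annotation release was used is not given in the sources. Estimated counts were summed per gene and rounded, and 0 columns of library values went unused. Reads shared by near-identical V genes were divided by the authors' estimator.

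CPM were computed with edgeR 4.0.16 (R 4.3.3) TMM-scaled totals. The main test was edgeR's quasi-likelihood test, KO against WT, after filterByExpr on the whole table, adjusted by Benjamini-Hochberg, at a threshold of 0.05. DESeq2 1.42.0 and limma-voom 3.58.1 were alternatives, each also with the replicate number as a block. Deviations from the group means correlated at 0.42, 0.27 and 0.42 for same-numbered libraries and at -0.32 to -0.10 otherwise, and the numbers were taken as pairs. Deviations within a group sum to 0, so the negative values follow in part from the positive ones. The labels state no pairs, so the pairing rests on these same data. Pair ratios of single genes used log2(CPM + 0.5). The membrane and secreted Ighm forms were matched by transcript identifier. The fits were also run on simulated data, whose outcome is not given here. The main edgeR test did not call even Il17a (log2 change -8.7, unadjusted p 2.99e-04), so its 0 calls do not show an absence of change.

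Described by name were every constant, J chain and lambda V member, the 10 heavy V members of highest mean CPM, members called in the main test or in DESeq2 with the block, and from each other list its called genes (up to 3 of smallest p) or, with none, its most abundant gene; other names are marked where given. Members and lists were chosen with earlier results of these data known. Some genes of these lists are not reported here, and the list counts leave them out.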

Additional observations from a re-analysis of the deposited data

How the results depend on the processing

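The main edgeR count of 0 members and 0 genes stayed at 0 with other size factors, without the low-count filter, in limma-voom with or without the replicate block, and in edgeR with the replicate block (0 members). DESeq2 called 1 member and 13 genes without the block, and 14 members and 374 genes with the replicate block; without the replicate 1, 2 or 3 libraries it called 10, 5 and 6 members, 1 of the 5 (Ighv2-4) lower in KO, and 177, 264 and 147 genes. Without KO 1, edgeR called 1 gene, no member. Summed levels kept their direction under every scaling and left-out library. The heavy constant log2 ratio of 0.84 was 0.60 without KO 1 and 1.16 without WT 1, and the lambda constant ratio of 1.18 was 0.31 and 2.12. Without KO 3 the edgeR changes of Igj, Ighg1, Ighg2b and Ighg2c were 0.57, 0.77, 1.38 and 1.45. Ighv11-2 turned to -0.12 in limma-voom without the block, -0.08 in DESeq2 with the block, -1.37 in that fit without the replicate 2 libraries and -1.88 in edgeR without KO 2. Without KO 1 the edgeR change of Cd8a turned to -0.82, and without KO 2 that of Itgam to -0.50. Their partner libraries stayed in, and these were the highest WT libraries, WT 1 for Cd8a (257 CPM) and WT 2 for Itgam (15.7 CPM). Within each pair both genes were higher in KO, with log2 ratios of 0.72, 0.36 and 0.96 for Cd8a and 0.47, 0.90 and 1.16 for Itgam. The cause was not tested. Of the other single-gene values 610 kept their direction and side of the threshold, and 72 crossed it in the same direction. Genes under 1 CPM rest on few counts, and fits without a pair have 1 residual degree of freedom.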
